A study of Arabidopsis thaliana with 24 samples.

Results

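Sulfate is the form in which plants take up most of their sulfur. Transporters of the SULTR family carry it into root cells, ATP sulfurylase (APS) activates it to adenosine 5′-phosphosulfate, and APS reductase (APR) turns this compound in plastids into sulfite, from which cysteine and then glutathione are made. A branch through APS kinase (APK) supplies activated sulfate for sulfated compounds such as glucosinolates, and small genes such as SDI1 and LSU1 are known for being switched on when a plant runs short of sulfur. The 10 genes described here sit along this route. They are the transporters SULTR1;1, SULTR1;2 and SULTR3;5, the ATP sulfurylases APS1 and APS3, the APS reductases APR1, APR2 and APR3, and the deficiency-inducible SDI1 and LSU1. They were found by gene ID in a table of 24497 genes, and all 10 were among the 19567 genes with enough reads to be tested. The 10 were selected on the levels and differences between groups seen in these same libraries, so their levels and differences are given as a description, with no test.

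The libraries came from Arabidopsis thaliana root tips about 0.5 cm long. Seedlings about 5 days old had been kept on control medium or on spectinomycin at 10 mg/L, which stops protein synthesis by plastid ribosomes. The labels disagree on how long the treatment lasted, with 16 h in one text and 24 h in another. WT (labelled Col), gun1-101, nac103-11 and NAC103-OX were each sampled on both media with 3 libraries, which gives 8 groups and 24 libraries. GUN1 encodes a plastid protein of plastid-to-nucleus signalling and NAC103 a NAC transcription factor. NAC103-OX is a 35S:NAC103-GFP line, in which the 35S promoter drives the transgene in most cell types. The title of the series asks how GUN1 and NAC103 relate when plastid translation is disrupted. Below, a response is the level on spectinomycin relative to that on control within 1 genotype. The batch tag of the labels takes a single value in each group, so batch and group cannot be told apart.

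Library totals ran from 13012580 to 17411876 counts, and the 10 genes together took between 0.0704% and 0.204% of them. Levels are in CPM, read counts scaled to a common library size, with library sizes adjusted by the TMM method. On control the GUN1 level was 85.8 ± 6.94 CPM in gun1-101, below the 148 ± 3.55 CPM of WT (mean ± SD, n = 3, as throughout). For NAC103 the control means were 17.4 ± 0.708 CPM in the overexpressor NAC103-OX, 0.764 ± 0.141 CPM in WT and 0.617 ± 0.138 CPM in nac103-11, so that its reads did not set nac103-11 apart from WT on control. On spectinomycin they were 0.0804 ± 0.0701 CPM in nac103-11 and 0.558 ± 0.0391 CPM in WT. Replicate 2 of WT control stood apart: its chi-square per degree of freedom over genes was 8.90 and 9.02 against the other WT controls, compared with 1.77 to 4.43 for all other pairs of replicates. Root tip markers were present in every group. Among them, group means were 38.8 to 46.3 CPM for SCR of the stem cell niche and endodermis and 48.9 to 62.0 CPM for CASP1 of the endodermis. For SUC2 of the phloem they were 162 to 221 CPM. Other markers were near the floor, such as WOX5 of the niche with 0.521 to 1.07 CPM and VND7 of the xylem with 0.323 to 0.611 CPM.

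Among the transporters, SULTR1;2 (AT1G78000, chromosome 1), the main high-affinity sulfate carrier of the root surface, was highest in untreated WT and lower in every other group. The WT libraries read 859.6, 858 and 835 CPM on control and 293, 289 and 299 CPM on spectinomycin. The gun1-101 libraries read 466, 470.4 and 470.4 CPM on control and 411, 420.4 and 425 CPM on spectinomycin. The WT groups lay far apart, while both gun1-101 groups lay near each other and between them. The nac103-11 libraries read 568, 555 and 532 CPM on control and 327, 320.1 and 317 CPM on spectinomycin. The NAC103-OX libraries read 192, 212 and 204 CPM on control and 183, 193 and 177 CPM on spectinomycin. NAC103-OX was thus the lowest genotype on either medium, and its 2 groups overlapped, whereas the other 6 groups did not overlap with their neighbours in the order of levels. The group means spanned 4.61-fold.

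In WT the SULTR1;2 response was -1.53 ± 0.042 on the log2 scale (± SE of the edgeR fit), a level 2.90-fold lower on spectinomycin. The responses were -0.78 ± 0.041 in nac103-11, -0.16 ± 0.041 in gun1-101 and -0.13 ± 0.042 in NAC103-OX. The 3 altered genotypes are compared with the same WT libraries. On control SULTR1;2 was lower than WT in all 3 of them, by -0.63 in nac103-11, -0.86 in gun1-101 and -2.07 in NAC103-OX (log2). On spectinomycin the order differed: gun1-101 was higher than WT by 0.51 ± 0.041, nac103-11 was higher by 0.13 ± 0.041, and NAC103-OX was lower with a difference of -0.67 ± 0.042. The place of gun1-101 relative to WT therefore changed side between the media, with no overlap of libraries on either. In whole root tips, fewer cells of a type and less RNA per cell cannot be told apart.

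**Figure D1:**
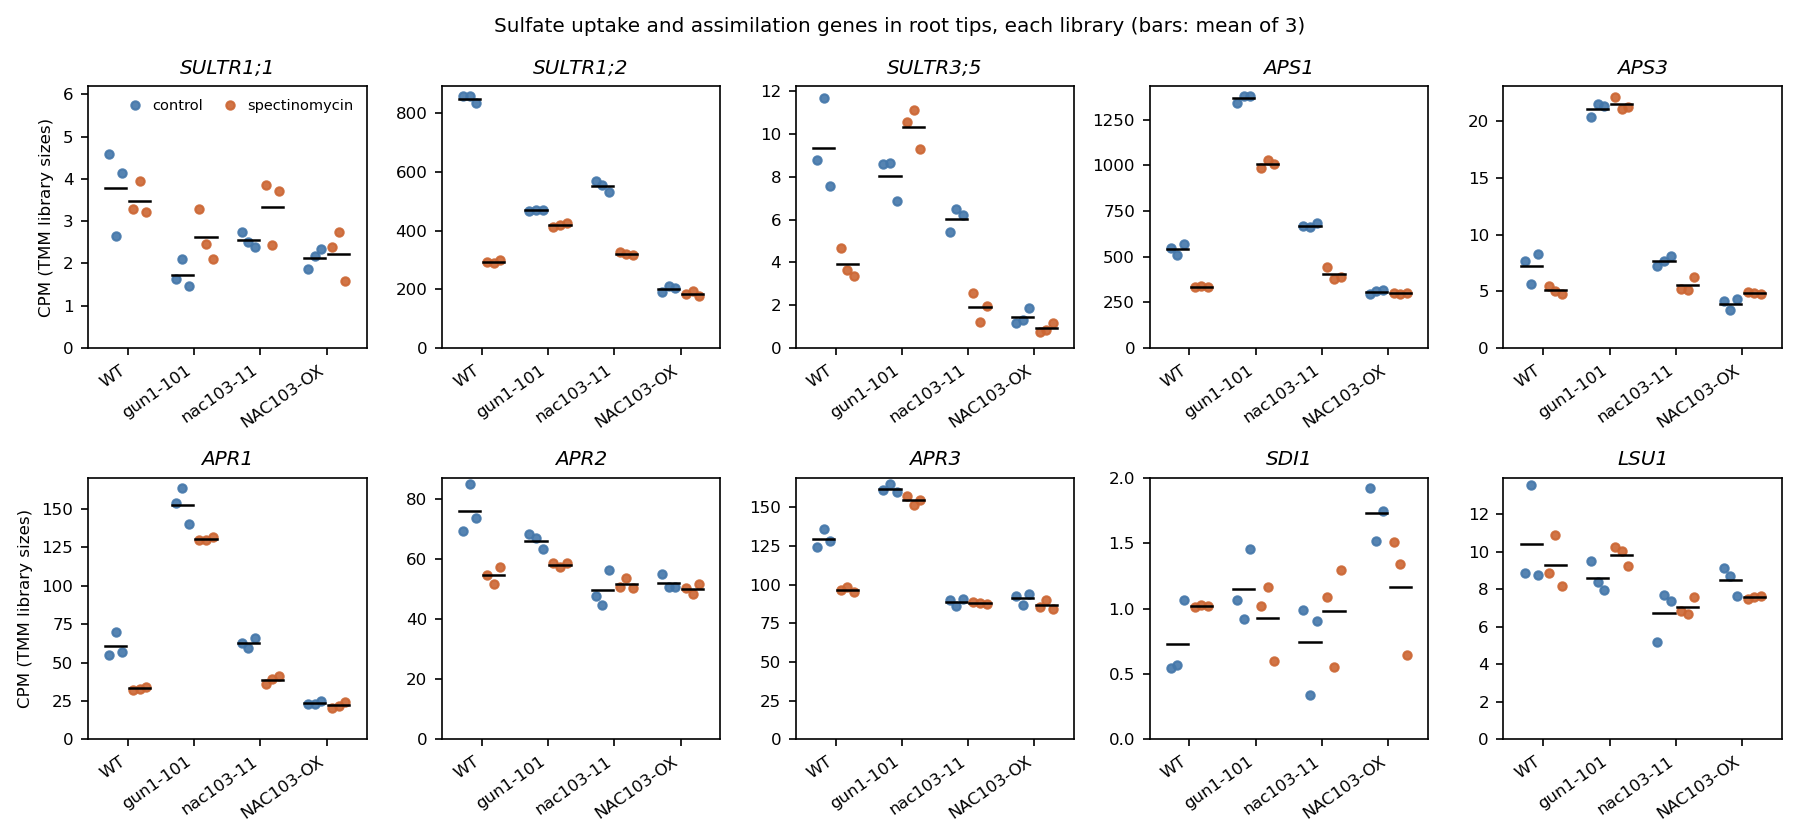
CPM on TMM library sizes (linear axes from 0) of each of the 10 genes in each of the 24 libraries, by genotype, with blue points for control, orange points for spectinomycin and black bars for the mean of 3. SULTR1;2 separates WT control from all other groups, whereas APS1, APS3 and APR1 separate both gun1-101 groups from the other 6.

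SULTR3;5 (AT5G19600, chromosome 5), a transporter of the root vasculature that aids the passage of sulfate towards the shoot, was a low-count gene with the widest span of the 10. The WT libraries read 8.79, 11.7 and 7.55 CPM on control and 4.67, 3.66 and 3.39 CPM on spectinomycin. The gun1-101 libraries read 8.58, 8.63 and 6.87 CPM on control and 10.6, 11.1 and 9.31 CPM on spectinomycin. In WT every spectinomycin library was below every control library, and in gun1-101 every spectinomycin library was above every control library. The nac103-11 libraries read 5.41, 6.49 and 6.21 CPM on control and 2.57, 1.22 and 1.97 CPM on spectinomycin. The NAC103-OX libraries read 1.18, 1.32 and 1.88 CPM on control and 0.755, 0.816 and 1.17 CPM on spectinomycin. By group mean the level was thus lowest in NAC103-OX, where the 6 libraries held 13 to 29 counts each, and the group means spanned 11.3-fold over all groups.

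The SULTR3;5 responses were -1.28 ± 0.16 in WT, -1.67 ± 0.21 in nac103-11, -0.67 ± 0.32 in NAC103-OX and 0.36 ± 0.15 in gun1-101. Replicate 2 held the highest WT control value, and without it the WT response was -1.08. On control gun1-101 differed from WT by -0.23 ± 0.15, with overlapping libraries, and by -0.03 without that replicate. On spectinomycin gun1-101 was 2.67-fold above WT, while nac103-11 was 2.04-fold and NAC103-OX 4.22-fold below it.

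SULTR1;1 (AT4G08620, chromosome 4), a second high-affinity uptake carrier, was barely expressed. Its group means ran from 1.73 CPM in gun1-101 on control to 3.78 CPM in WT on control, on 17 to 75 counts per library, and every group overlapped with its neighbours in the order of levels. The libraries read 4.58, 2.64 and 4.13 CPM in WT on control and 1.63, 2.09 and 1.46 CPM in gun1-101 on control, which did not overlap. On spectinomycin they read 3.28, 3.95 and 3.22 CPM in WT and 3.28, 2.47 and 2.103 CPM in gun1-101, so that gun1-101 was higher than on its own control, with no overlap but next to no gap. Per transcript length, in TPM, the deposited unit that scales for length, SULTR1;2 made up 98.6% to 99.6% of the summed level of the group 1 transporters SULTR1;1, SULTR1;2 and SULTR1;3 in every group.

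The activation and first reduction steps followed another order. APS1 (AT3G22890, chromosome 3), a plastid ATP sulfurylase, was highest in gun1-101. The WT libraries read 549, 508 and 569 CPM on control and 333, 337 and 331 CPM on spectinomycin. The gun1-101 libraries read 1344, 1380.4 and 1379 CPM on control and 983, 1028 and 1010.2 CPM on spectinomycin. Even treated gun1-101 was above every WT library. The nac103-11 libraries read 665, 662 and 683 CPM on control and 444, 378 and 390.3 CPM on spectinomycin. The NAC103-OX libraries read 297, 312 and 318 CPM on control and 299.8, 294 and 303 CPM on spectinomycin. Levels were lower on spectinomycin in WT, gun1-101 and nac103-11 without overlap, and the NAC103-OX groups overlapped at a level below treated WT.

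The APS1 response was -0.70 ± 0.047 in WT, -0.73 ± 0.047 in nac103-11, -0.44 ± 0.046 in gun1-101 and -0.05 ± 0.047 in NAC103-OX. Relative to WT, gun1-101 was 2.52-fold higher on control and 3.02-fold higher on spectinomycin. The nac103-11 differences were 0.31 ± 0.046 on control and 0.28 ± 0.047 on spectinomycin. NAC103-OX differed from WT by -0.81 ± 0.047 on control and by -0.16 ± 0.047 on spectinomycin.

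APS3 (AT4G14680, chromosome 4), another ATP sulfurylase, was a minor gene with a similar profile. The WT libraries read 7.69, 5.68 and 8.27 CPM on control and 5.49, 5.03 and 4.78 CPM on spectinomycin. The gun1-101 libraries read 20.4, 21.5 and 21.4 CPM on control and 22.2, 21.1 and 21.2 CPM on spectinomycin. The 6 gun1-101 libraries were above all 18 others, and the WT groups lay close together without overlap. The nac103-11 libraries read 7.23, 7.71 and 8.09 CPM on control and 5.21, 5.10 and 6.25 CPM on spectinomycin. The NAC103-OX libraries read 4.10, 3.36 and 4.28 CPM on control and 4.94, 4.84 and 4.75 CPM on spectinomycin. In CPM NAC103-OX was the only genotype in which every spectinomycin library was above every control library. Its response was 0.30 ± 0.14, against -0.49 ± 0.12 in WT. In gun1-101 the groups overlapped in CPM, with a response of 0.03 ± 0.089, and the level on spectinomycin was 4.23-fold that of WT. In TPM the spectinomycin libraries of gun1-101 were above its controls too, and the WT groups overlapped.

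APR1 (AT4G04610, chromosome 4), an APS reductase of the step known to limit the rate of sulfate reduction, followed the same order. The WT libraries read 55.1, 70.0 and 56.8 CPM on control and 32.4, 33.0 and 34.3 CPM on spectinomycin. The gun1-101 libraries read 154, 163 and 140.3 CPM on control and 129.9, 130.0 and 132 CPM on spectinomycin. Spectinomycin libraries were below control libraries in both genotypes, and the gun1-101 level stayed above every WT library. The nac103-11 libraries read 63.0, 59.7 and 65.8 CPM on control and 35.9, 39.6 and 41.4 CPM on spectinomycin. The NAC103-OX libraries read 22.9, 22.9 and 24.8 CPM on control and 20.6, 21.8 and 24.7 CPM on spectinomycin. On control nac103-11 and WT overlapped, and NAC103-OX was 2.58-fold below WT. The group means spanned 6.82-fold, from treated NAC103-OX to untreated gun1-101.

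The APR1 response was -0.87 ± 0.074 in WT, -0.69 ± 0.073 in nac103-11, -0.22 ± 0.064 in gun1-101 and -0.07 ± 0.088 in NAC103-OX. Without replicate 2 of WT control the WT response was -0.75. Relative to WT, gun1-101 was 2.51-fold higher on control and 3.92-fold higher on spectinomycin.

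Over the 24 libraries the log2 levels of APS1, APS3 and APR1 moved together, with Pearson r of 0.978 for APS1 and APR1, 0.954 for APS1 and APS3, and 0.949 for APS3 and APR1. These coefficients describe 8 group levels measured in shared libraries and carry no p. Because these 3 genes share a profile, the 300 bases around their gene starts are shown, from 250 bases before the start of the RefSeq gene model to 50 bases of it, together with those of SDI1, which alone held a match to the motifs searched. All 4 were read 5′ to 3′ on the strand of the gene from the RefSeq assembly TAIR10.1. APS1 lies at chr3:8112364-8112663 on the plus strand, APS3 at chr4:8415601-8415900 on the minus strand, APR1 at chr4:2324628-2324927 on the plus strand and SDI1 at chr5:19807804-19808103 on the minus strand. Capitals mark matches to GAGAC on either strand.
APS1: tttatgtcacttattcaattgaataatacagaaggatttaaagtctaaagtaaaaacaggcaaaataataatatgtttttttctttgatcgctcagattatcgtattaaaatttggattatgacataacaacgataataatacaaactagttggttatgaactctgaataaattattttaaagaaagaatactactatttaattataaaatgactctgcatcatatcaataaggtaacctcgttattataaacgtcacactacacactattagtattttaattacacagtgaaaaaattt
APS3: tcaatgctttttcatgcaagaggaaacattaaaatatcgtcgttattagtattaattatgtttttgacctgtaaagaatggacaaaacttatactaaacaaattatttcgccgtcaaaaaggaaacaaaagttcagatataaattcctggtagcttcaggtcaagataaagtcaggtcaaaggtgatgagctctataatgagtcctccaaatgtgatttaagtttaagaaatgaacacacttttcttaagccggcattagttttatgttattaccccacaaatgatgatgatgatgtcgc
APR1: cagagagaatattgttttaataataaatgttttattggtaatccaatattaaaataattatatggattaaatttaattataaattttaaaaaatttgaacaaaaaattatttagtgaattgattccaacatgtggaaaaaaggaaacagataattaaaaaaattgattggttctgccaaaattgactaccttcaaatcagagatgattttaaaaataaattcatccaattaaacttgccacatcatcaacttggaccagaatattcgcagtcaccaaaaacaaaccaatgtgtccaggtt
SDI1: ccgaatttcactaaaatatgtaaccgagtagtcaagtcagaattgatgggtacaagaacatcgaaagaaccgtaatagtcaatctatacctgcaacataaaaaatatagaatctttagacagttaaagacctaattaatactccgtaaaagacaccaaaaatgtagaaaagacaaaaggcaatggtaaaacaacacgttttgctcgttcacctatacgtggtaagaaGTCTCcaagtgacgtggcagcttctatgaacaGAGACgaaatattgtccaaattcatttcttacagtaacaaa

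The motifs searched on both strands were GAGAC, the core of the sulfur-responsive element, CACGTG, the G-box, and TCATCG, the UPRE-III motif that NAC103 is known to bind. GAGAC was found in 32.8% of 27443 promoters of coding genes cut to the same window, CACGTG in 7.68% and TCATCG in 8.63%. Among the 10 genes, SDI1 alone held GAGAC, with matches at offsets of -23 and 9 bases from the first base of the gene. None of the 10 windows held CACGTG or TCATCG. A match is a description of letters in this window, and its absence says nothing of a factor.

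The other APS reductases varied less. APR2 (AT1G62180, chromosome 1) was highest in WT on control, where the libraries read 69.1, 85.04 and 73.6 CPM, and on spectinomycin they read 54.7, 51.8 and 57.2 CPM. The group means of the other 6 groups ran from 49.6 CPM in nac103-11 on control to 66.1 CPM in gun1-101 on control. Spectinomycin libraries were below control libraries in WT and gun1-101, with responses of -0.48 ± 0.065 and -0.19 ± 0.068, and overlapped them in nac103-11 and NAC103-OX, with responses of 0.05 ± 0.068 and -0.06 ± 0.068. Without replicate 2 of WT control, which held the highest APR2 value of all libraries, the WT response was -0.39. The span of the group means was 1.53-fold.

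APR3 (AT4G21990, chromosome 4) stood at 129.6 ± 6.15 CPM in WT on control and 96.9 ± 1.40 CPM on spectinomycin. In gun1-101 it stood at 162 ± 2.77 CPM on control and 155 ± 3.14 CPM on spectinomycin. All 6 gun1-101 libraries were above all others, and the WT controls came next. In nac103-11 and NAC103-OX the 4 group means lay between 86.8 and 91.2 CPM, below both WT groups. The APR3 response was -0.42 ± 0.044 in WT, -0.07 ± 0.044 in gun1-101, -0.02 ± 0.046 in nac103-11 and -0.07 ± 0.046 in NAC103-OX. In CPM both APR2 and APR3 were thus at similar levels in nac103-11 and NAC103-OX, whose APR1 levels on control were 62.8 and 23.5 CPM. In TPM the APR3 level on control was lower in nac103-11 than in NAC103-OX without overlap, at 67.6 ± 2.20 and 76.7 ± 3.40 TPM.

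Of the deficiency-inducible genes, SDI1 (AT5G48850, chromosome 5), which is known to hold back glucosinolate synthesis when sulfur is short, had 5 to 31 counts per library. It was highest in NAC103-OX on control, where the libraries read 1.93, 1.52 and 1.75 CPM. In WT on control they read 0.549, 0.573 and 1.07 CPM, below all NAC103-OX controls, a difference of 1.27 ± 0.33. In WT on spectinomycin the libraries read 1.01, 1.03 and 1.02 CPM, inside the range of the WT controls. All 6 groups other than NAC103-OX had means of 0.731 to 1.15 CPM. Over the 24 libraries SDI1 had r of -0.533 to SULTR1;2, and the NAC103-OX groups held both the highest SDI1 and the lowest SULTR1;2 means. For SDI1 only the untreated NAC103-OX group stood apart. The treated group, at 1.16 ± 0.459 CPM, overlapped with gun1-101 on control, at 1.15 ± 0.279 CPM.

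LSU1 (AT3G49580, chromosome 3), which encodes a small protein of the sulfur-deficiency response on a short transcript, had group means of 6.76 to 10.4 CPM. Per length it stood at 30.7 ± 8.48 TPM in WT on control and 28.7 ± 3.74 TPM on spectinomycin, where APR1 stood at 45.4 ± 6.35 and 26.4 ± 0.832 TPM and SDI1 at 0.970 ± 0.382 and 1.44 ± 0.0115 TPM. In WT the libraries read 8.85, 13.5 and 8.76 CPM on control and 8.84, 10.9 and 8.17 CPM on spectinomycin, which overlapped. The WT response of -0.17 ± 0.13 was 0.08 without replicate 2 of WT control, the highest LSU1 library. The nac103-11 libraries read 5.18, 7.71 and 7.38 CPM on control, below all WT controls, and the difference of -0.62 ± 0.14 was -0.37 without replicate 2. The NAC103-OX libraries read 9.13, 8.71 and 7.65 CPM on control and 7.49, 7.57 and 7.62 CPM on spectinomycin. There was no overlap but next to no gap, with a response of -0.17 ± 0.14, and in TPM the groups overlapped.

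Set side by side, 7 of the 10 genes had all WT spectinomycin libraries below all WT control libraries, none had them above, and 3 overlapped. Of all genes tested, 22.1% were lower and 23.7% higher in that sense. These counts and those below are in CPM, and some sides depended on the unit. In TPM the APS3 groups of WT overlapped, and SDI1 was higher on spectinomycin in WT with next to no gap. In gun1-101, 5 genes were lower on spectinomycin and 2 higher (17.3% and 12.3% of all genes), the 2 being SULTR1;1 and SULTR3;5. In TPM the APR3 groups of gun1-101 overlapped, and APS3 and LSU1 were higher there without overlap. In nac103-11, 5 were lower and none higher (27.2% and 27.0% of all genes). In TPM, APR3 was higher there on spectinomycin, at 73.3 to 74.1 against 65.1 to 69.0 TPM, as was LSU1 with next to no gap. In NAC103-OX, 3 were lower, namely SULTR3;5, SDI1 and LSU1, and APS3 alone was higher (13.4% and 12.2% of all genes). The gaps of the 3 lower genes were next to none, such as 1.180 against 1.172 CPM for SULTR3;5. In TPM the NAC103-OX groups of all 3 overlapped. The median log2 difference of the 10 genes was -0.48 in WT, -0.12 in gun1-101, -0.25 in nac103-11 and -0.07 in NAC103-OX, where the medians over all genes tested were 0.03, -0.01, 0.02 and -0.004.

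Between genotypes on control, gun1-101 had 4 genes above WT (APS1, APS3, APR1 and APR3) and 3 below it (SULTR1;1, SULTR1;2 and APR2), where 27.0% and 19.0% of all genes lay above and below without overlap. On spectinomycin gun1-101 had 7 above WT and none below (30.0% and 32.7% of all genes). The smallest of the 7 differences was that of APR2, at 0.09 ± 0.067, and its side depended on the unit. In TPM every gun1-101 library of APR2 was below every WT library there, at 37.8 ± 0.761 and 41.6 ± 2.72 TPM. NAC103-OX had 8 below WT and SDI1 above it on control (24.5% and 24.7% of all genes), and 8 below and none above on spectinomycin (16.6% and 16.8% of all genes). In nac103-11, APS1 was above WT on control and 5 genes were below (25.3% and 23.0% of all genes), with 3 above and 3 below on spectinomycin (20.9% and 19.0% of all genes). Because the genes were picked with these comparisons in view, nothing is read from the counts. The 6 comparisons share the WT libraries.

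**Figure D2:**
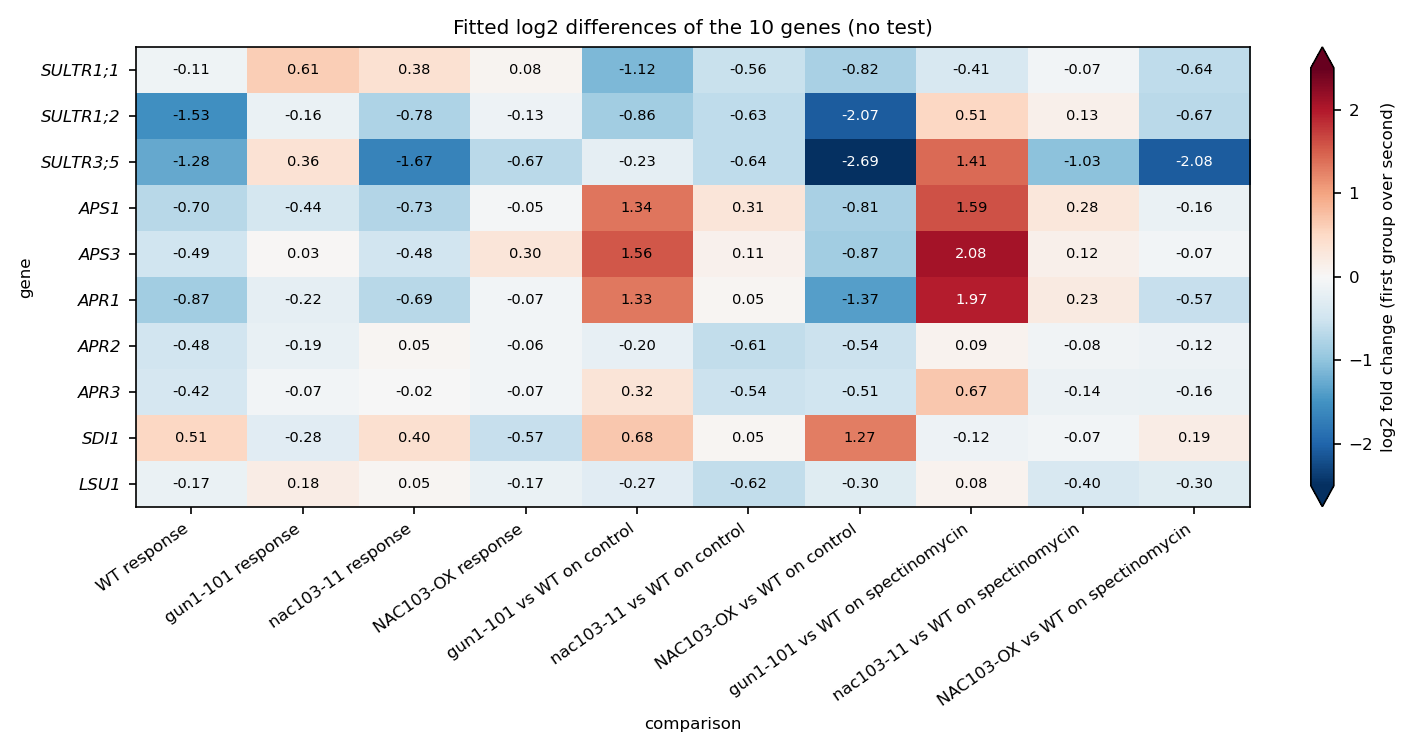
Fitted log2 fold changes of the 10 genes (rows) in 10 comparisons (columns), red for higher and blue for lower in the first group named. The 4 responses are the level on spectinomycin over that on control. The gun1-101 columns hold positive values for APS1, APS3 and APR1 on both media, up to 2.08 for APS3, and the NAC103-OX column on control holds negative values for all genes but SDI1.

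Levels per transcript length showed what these profiles added up to within each enzyme family. The 4 ATP sulfurylase genes summed to 789.9 ± 19.6 TPM in WT on control, of which APS1 gave 52.3% and APS4, which is none of the 10 genes, 42.4%. In gun1-101 on control they summed to 1276 ± 21.7 TPM with 72.1% from APS1. In NAC103-OX on control they summed to 677 ± 3.98 TPM with 35.6% from APS1 and 58.3% from APS4. APS1 thus led the family in WT, gun1-101 and nac103-11 on control, and APS4 led it in both NAC103-OX groups and in WT on spectinomycin, where APS1 gave 40.8% and APS4 51.9% of 661 ± 17.7 TPM. APS3 gave 1.39% at most.

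The 3 APS reductase genes summed to 206 ± 18.9 TPM in WT on control and 153 ± 2.63 TPM on spectinomycin. In gun1-101 the sums were 259.9 ± 10.7 and 245 ± 3.13 TPM. The sums on control and spectinomycin were 144 ± 8.17 and 142 ± 3.70 TPM in nac103-11, and 133 ± 5.28 and 131 ± 2.22 TPM in NAC103-OX. APR3 gave the largest share in every group. APR1 gave 38.7% ± 1.25 in gun1-101, 30.3% ± 0.181 in nac103-11, 22.0% ± 1.03 in WT and 13.6% ± 0.539 in NAC103-OX on control.

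**Figure D3:**
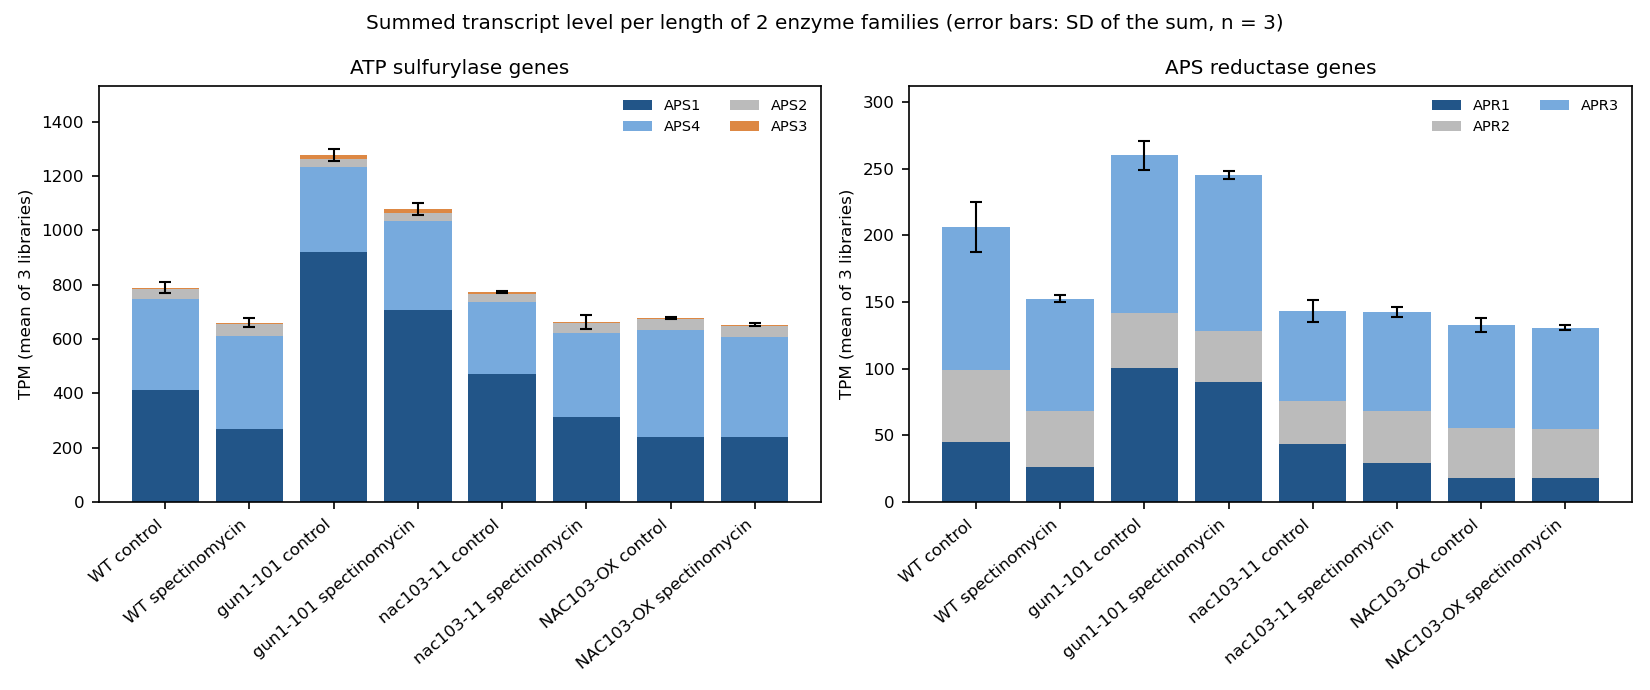
Stacked bars of mean TPM (linear axis from 0) of the ATP sulfurylase genes (left) and the APS reductase genes (right) in the 8 groups, with error bars for the SD of the sum over 3 libraries. The sums were highest in gun1-101 for both families, and the APS1 and APR1 segments differed most between groups.

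The ratio of SULTR1;2 to APS1 in TPM differed between genotypes. It was 1.07 ± 0.0763 in WT on control, with libraries from 0.995 to 1.15, and 0.596 ± 0.0135 on spectinomycin. In gun1-101 it was 0.231 ± 0.00282 on control and 0.281 ± 0.00444 on spectinomycin. All gun1-101 libraries had a lower ratio than all others, and all WT controls a higher one. The ratios of nac103-11 overlapped between the media, at 0.556 ± 0.0258 and 0.534 ± 0.0362, as did those of NAC103-OX, at 0.445 ± 0.0138 and 0.416 ± 0.0248.

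**Figure D4:**
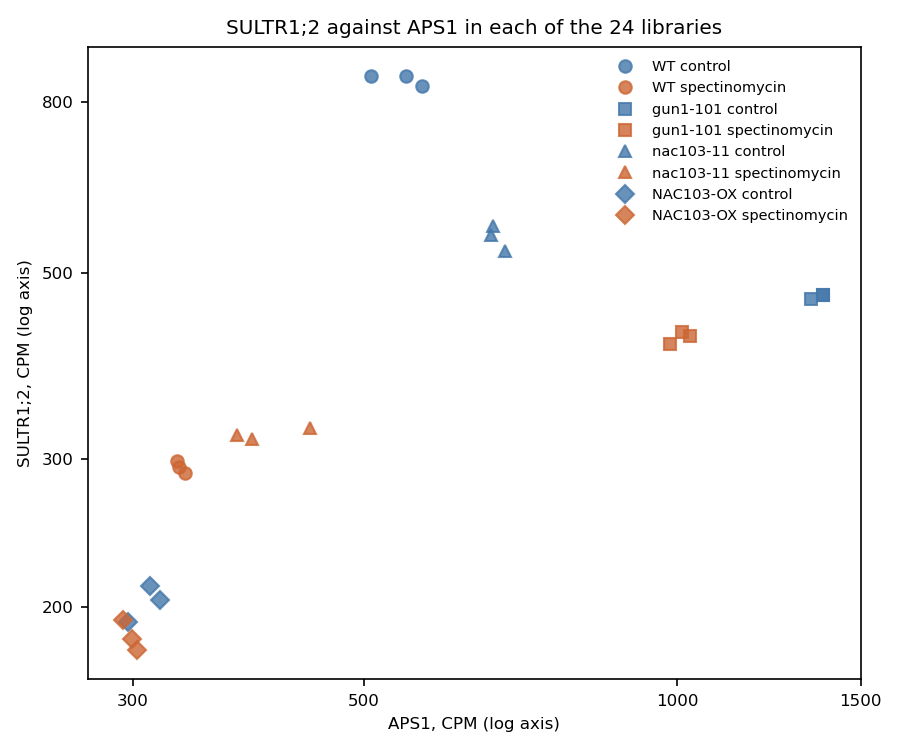
SULTR1;2 against APS1 in CPM on TMM library sizes (both axes logarithmic), 1 point per library, with circles for WT, squares for gun1-101, triangles for nac103-11 and diamonds for NAC103-OX, in blue on control and orange on spectinomycin. WT control sits at the top near 850.9 CPM of SULTR1;2, gun1-101 at the right with up to 1380.4 CPM of APS1, and both NAC103-OX groups at the lower left.

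The genes most like each of the 10 were sought among 7344 named genes whose mean reached 5 CPM in 1 group or more, by Pearson r of log2 CPM over the 24 libraries. SULTR1;2 was nearest to GLT1 (r = 0.981), a glutamate synthase gene, NIR1 (0.979), the nitrite reductase gene, and BRU6 (0.977). APS1 was nearest to AAT (0.994), CBR (0.992) and LOH2 (0.992), APS3 to SAL1 (0.985), PAD3 (0.982) and TSB2 (0.981), and APR1 to SOT17 (0.988), a sulfotransferase gene of glucosinolate synthesis, HSF4 (0.986) and ERF11 (0.986). SULTR3;5 was nearest to BCA3 (0.949), and APR3 to OPR1 (0.946). APR2 was nearest to MYB28 (0.829) and CYP83A1 (0.817), both genes of aliphatic glucosinolate synthesis. The best values of the other 3 genes were 0.812 with IAA14 for SULTR1;1, 0.798 with HSP81-3 for LSU1 and 0.704 with PAHX for SDI1. Between members of different steps, SULTR1;2 had r of 0.850 with SULTR3;5, 0.677 with APR1 and 0.626 with APS1.

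Further genes of the pathway were taken from 5 lists of 44 genes, none of them among the 10, and 40 could be tested; SULTR1;3, SULTR3;2, DES1 and LSU4 had too few reads. Tests were edgeR's quasi-likelihood F tests with Benjamini-Hochberg adjustment over all 19567 genes, at 0.05. In WT 13 of the 40 rose on spectinomycin and 14 fell, where 20.1% of all genes rose and 20.4% fell. APK2, an APS kinase gene, fell from 78.2 ± 5.31 to 20.4 ± 0.893 CPM in WT (-1.94 ± 0.061, adjusted p = 2.07e-28), as did APK1 (-1.26 ± 0.049, adjusted p = 5.54e-25) and SIR, the sulfite reductase gene (-0.52 ± 0.041, adjusted p = 3.26e-14). GSH1, which encodes the first enzyme of glutathione synthesis, fell by 0.75 (SE 0.042, adjusted p = 2.71e-19), and SULTR2;2, a vascular transporter gene, rose (0.96 ± 0.069, adjusted p = 1.03e-15). The sum of the phloem markers was higher there too, at 286 to 295 CPM on spectinomycin and 225 to 277 CPM on control. Among these markers SUC2 was higher without overlap, while APL and SEOR1 overlapped between the media. Their part in SULTR2;2 was not tested. Of the 7 transporters tested 4 rose, and of the 7 deficiency markers 3 rose and 2 fell. The median of the 40 was -0.05, beside 0.03 over all genes.

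In gun1-101, edgeR called none of the 40 as risen on spectinomycin and 7 as fallen (3.22% and 7.96% of all genes), where 1 rose at an unadjusted p under 0.05 and DESeq2 called 0 as risen. In nac103-11, 10 rose and 13 fell (21.4% and 23.4%), and in NAC103-OX 2 rose and 4 fell (2.24% and 2.82%), or 2 and 0 without replicate 3 of NAC103-OX on spectinomycin. The response itself differed from that of WT in 19 of the 40 for gun1-101 (24.5% of all genes), in 5 for nac103-11 (11.8%) and in 24 for NAC103-OX (31.6%). Without replicate 2 of WT control these counts were 26, 11 and 24, and the shares of all genes were not recomputed. APK2 stood at 383 ± 19.4 CPM in gun1-101 on control and 313 ± 1.85 CPM on spectinomycin, above WT on both media (2.29 ± 0.051, adjusted p = 1.11e-33, and 3.94 ± 0.058, adjusted p = 5.27e-41). In NAC103-OX it stood at 10.8 ± 0.864 and 11.2 ± 0.498 CPM, and on control it was below WT (-2.85 ± 0.068, adjusted p = 8.29e-33). Its order of groups was that of APS1 and APR1, but for the overlapping NAC103-OX groups, which changed places. Among NAC103-OX, WT and gun1-101 on control, SULTR2;2 took the opposite order, at 56.8 ± 3.03, 21.4 ± 2.01 and 15.5 ± 1.41 CPM. Both differences from WT passed the test (1.40 ± 0.068, adjusted p = 1.21e-21, for NAC103-OX, and -0.47 ± 0.083, adjusted p = 8.30e-06, for gun1-101).

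On control, gun1-101 had 20 of the 40 higher than WT and 4 lower (24.7% and 15.8% of all genes), nac103-11 had 11 and 11 (23.2% and 20.1%), and NAC103-OX had 12 and 15 (22.8% and 22.6%). On spectinomycin the counts were 19 higher and 12 lower for gun1-101 (27.7% and 29.3% of all genes), 10 and 7 for nac103-11 (15.5% and 11.1%), and 6 and 10 for NAC103-OX (8.45% and 8.32%). On spectinomycin gun1-101 exceeded WT in TAAC, a plastid carrier also known to move activated sulfate (1.44 ± 0.079, adjusted p = 6.90e-20), GSH1 (1.26 ± 0.042, adjusted p = 8.07e-28), SERAT2;1, a serine acetyltransferase gene (1.17 ± 0.055, adjusted p = 1.31e-20), and SLIM1, the transcription factor of sulfur limitation (0.77 ± 0.068, adjusted p = 4.22e-13). The deficiency marker LSU2 was lower there (-0.72 ± 0.16, adjusted p = 2.29e-04), while BGLU30, a beta-glucosidase gene, was higher (2.52 ± 0.041, adjusted p = 9.07e-40).

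**Figure D5:**
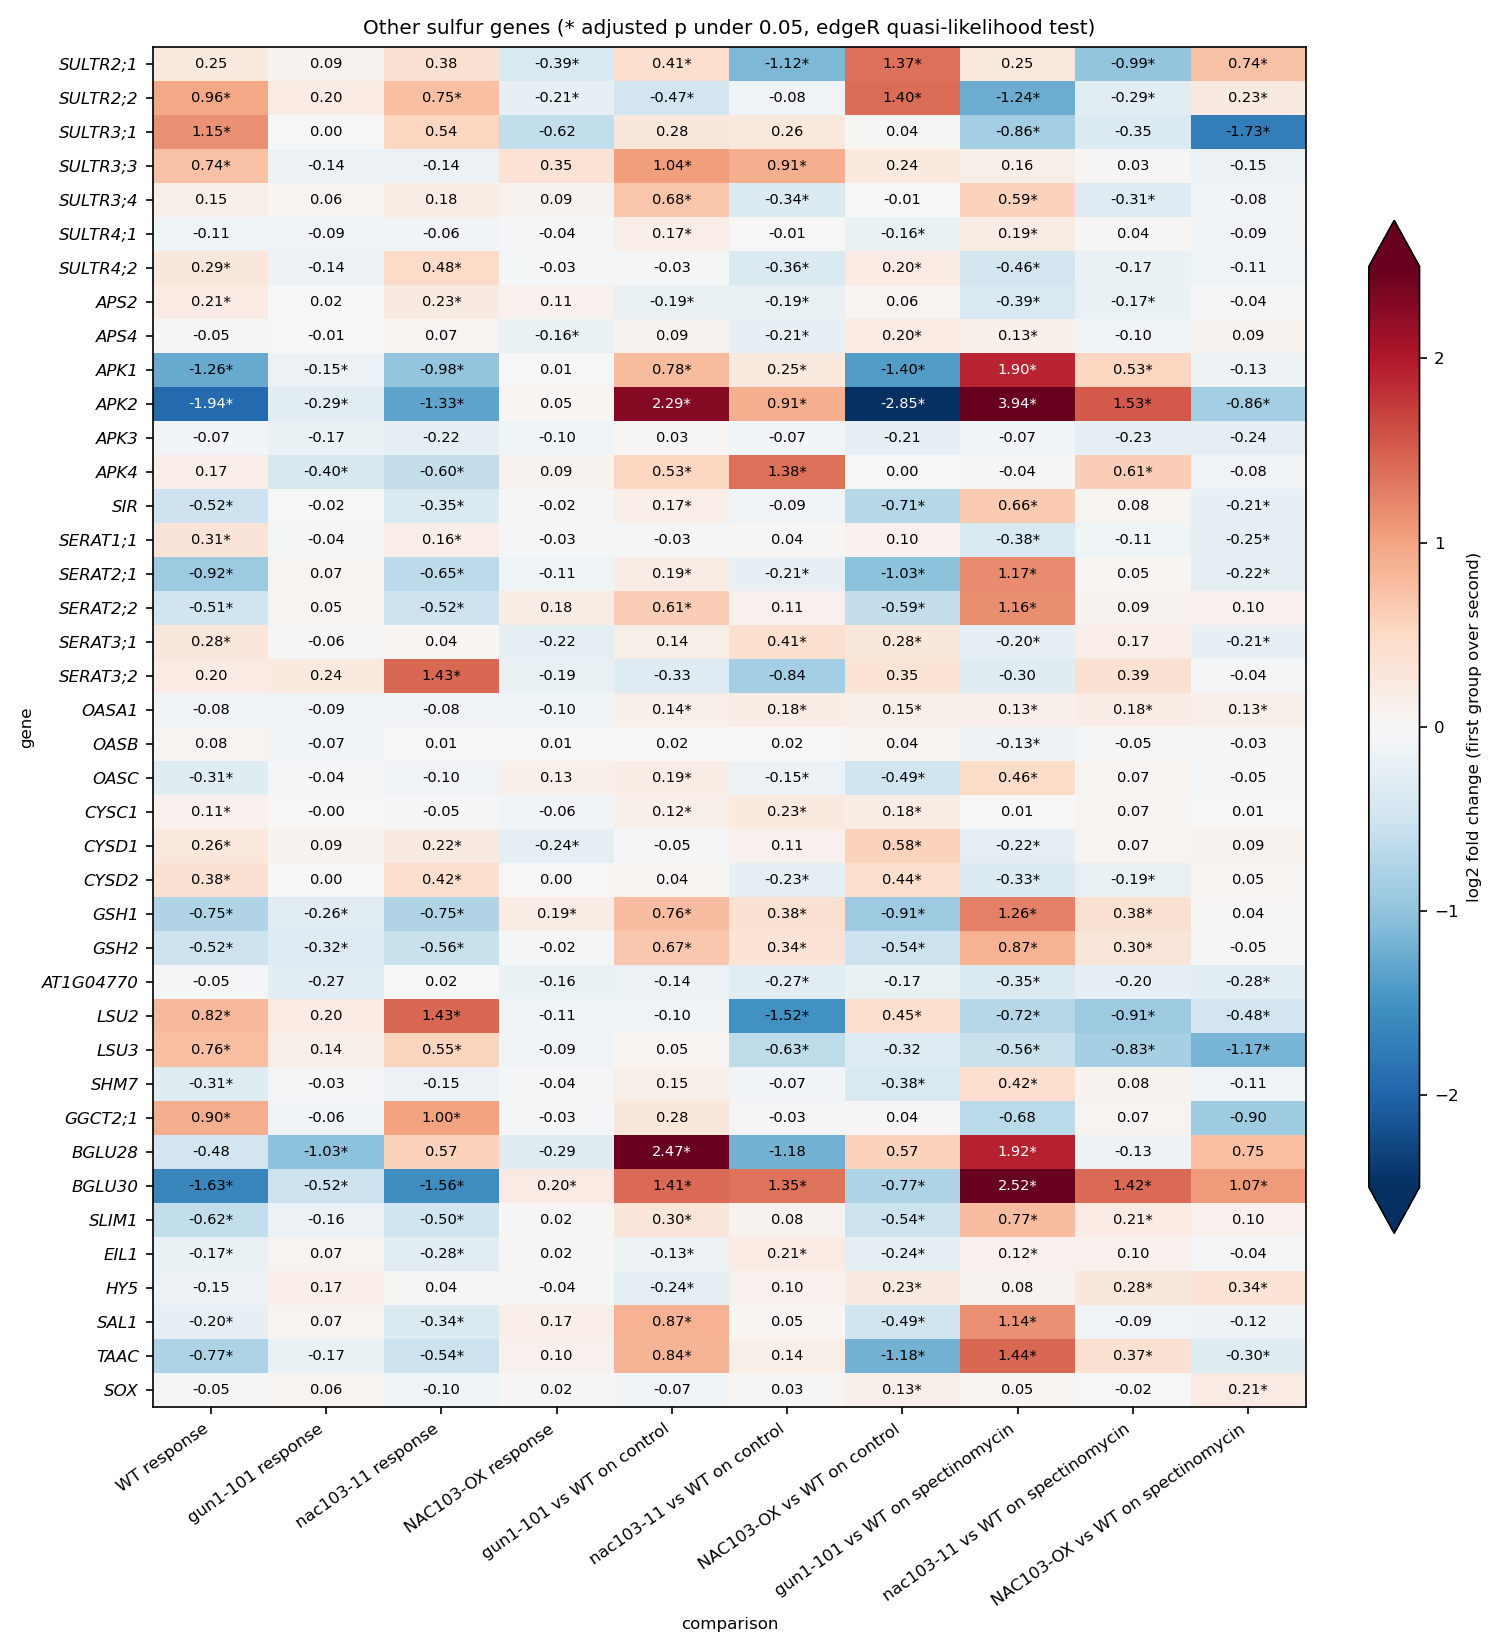
Fitted log2 fold changes of the 40 tested sulfur genes outside the 10 (rows) in 10 comparisons (columns), red for higher and blue for lower in the first group named, with an asterisk where the edgeR adjusted p was under 0.05. APK2 runs from -2.85 in NAC103-OX over WT on control to 3.94 in gun1-101 over WT on spectinomycin.

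Genes used as markers of green shoot tissue, a tissue that a root tip should lack, differed between genotypes and media. More of such tissue and more RNA of these genes in root cells cannot be told apart. The sum of RBCS1A, LHCB1.1, LHCB2.1 and RCA was 100.1 to 195 CPM in the WT control libraries, 199 to 208 CPM in WT on spectinomycin, 219 to 226 CPM in gun1-101 on control and 233 to 249 CPM in gun1-101 on spectinomycin. In nac103-11 it was 126 to 139 CPM on control and 182 to 189.6 CPM on spectinomycin, and in NAC103-OX 162 to 174 and 155 to 177 CPM. All 4 were detected, with LHCB1.1 the lowest at group means of 0.160 to 1.4997 CPM. In this sum gun1-101 stood above WT on both media, and WT on spectinomycin stood above WT on control. Its relation to the levels of APS1 and APR1 was not tested.

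Markers of root tissues differed as well. The sum of the phloem markers SUC2, APL and SEOR1 on control was 225 to 277 CPM in WT, 311 to 333 CPM in gun1-101, 273 to 295 CPM in nac103-11 and 333 to 343 CPM in NAC103-OX. On spectinomycin it was 286 to 295, 313 to 329, 289 to 307 and 316 to 319.5 CPM in the same order. In WT every spectinomycin library was thus above every control, which among the single markers held for SUC2 alone. The sum of the root-hair markers COBL9, EXPA7, RHD6 and RSL4 on control was 88.7 to 137 CPM in WT, 90.1 to 94.5 CPM in gun1-101, 123 to 134 CPM in nac103-11 and 122 to 132 CPM in NAC103-OX. On spectinomycin it was 128 to 132, 104 to 111, 123 to 130.2 and 112 to 117.5 CPM. On spectinomycin gun1-101 was thus below WT in this sum of epidermal markers. Among the single markers COBL9, EXPA7 and RSL4 were lower there without overlap. RHD6 was higher without overlap, at 15.2 to 18.2 CPM in gun1-101 and 12.9 to 14.9 CPM in WT. The relation of these markers to SULTR1;2, which was higher in gun1-101 there, was not tested.

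The outlying replicate 2 of WT control differed from replicates 1 and 3 in these sums. Its green-tissue sum was 195 CPM against 100.1 and 104 CPM, and its phloem sum 277 CPM against 229 and 225 CPM. Its root-hair sum was 88.7 CPM against 137 and 137 CPM. The part of any of these tissues in the levels of the 10 genes was not tested.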

How the data were processed

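Root tip RNA was sequenced in 24 libraries, 3 for each of 8 groups given by the labels. Expected counts per gene were made by the authors with RSEM 1.3.1, per the submitters' processing notes, and 98.3% were whole as deposited. They were rounded. The deposited TPM values of the same table were used to compare genes per length. The aligner and annotation are not given in the sources used here. Transcript lengths of the RefSeq TAIR10.1 models came within 10 bases of those behind the TPM in 1806 of 1806 genes with 1 transcript, so promoters were read from TAIR10.1.

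All libraries entered 1 edgeR 4.0.16 model (R 4.3.3) in which each group had its own mean. Libraries were scaled by TMM, and F tests were 2-sided, from a robust quasi-likelihood fit. filterByExpr (minimum count 10, minimum total 15) kept 19567 genes. The spread had 16 residual degrees of freedom and a common biological coefficient of variation of 0.0466. SE is the absolute log2 fold change over the root of F. P-values were adjusted by Benjamini-Hochberg over all genes tested, at 0.05, and the code was tested on simulated data. Alternatives were DESeq2 1.42.0, RLE size factors, no filter, fewer groups, a replicate block and leaving out each library.

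The 10 genes and the gene lists were chosen with earlier results of these data known. Named beyond the 10 were up to 3 genes per list and comparison with the smallest p among those past the threshold, and the 3 genes nearest to each of the 10. Names were checked against RefSeq, and AT1G04770, which has no symbol there, was counted only. The labels call the libraries biological replicates but do not say from which plates they came, so p-values measure the spread between these libraries, which may be technical.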

Additional observations from a re-analysis of the deposited data

Results flagged for a closer look

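In SULTR3;5, every gun1-101 library on spectinomycin was above every gun1-101 control library, while every WT library on spectinomycin was below every WT control. The responses differed by 1.64 on the log2 scale, and the difference was not tested, since the gene had been picked with these results known. APS3 did the same between NAC103-OX, where spectinomycin libraries were higher, and WT, where they were lower, with a difference of 0.79 that was not tested either. In TPM the WT groups of APS3 overlapped.

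The remaining results stand here because the response of an altered genotype differed from that of WT by edgeR's quasi-likelihood test of the difference itself, adjusted over all genes. Of the 40 other sulfur genes tested, 19 differed for gun1-101 (24.5% of all genes), 5 for nac103-11 (11.8%) and 24 for NAC103-OX (31.6%). The nac103-11 count was 12.5% of the 40, near the share of all genes. Without replicate 2 of WT control the counts were 26, 11 and 24 in the same order, and the shares of all genes were not recomputed. In gun1-101 the response minus that of WT was 1.65 for APK2, 1.11 for BGLU30, 0.99 for SERAT2;1, 0.60 for TAAC and -0.76 for SULTR2;2. In NAC103-OX it was 1.99 for APK2, 1.83 for BGLU30, 0.94 for GSH1, 0.88 for TAAC and -1.17 for SULTR2;2. In nac103-11 it was 0.61 for APK2, 0.27 for SERAT2;1 and -0.88 for SULTR3;3. The adjusted p-values of these 13 differences ran from 2.66e-28 for BGLU30 in NAC103-OX to 0.0184 for SERAT2;1 in nac103-11. All 3 sets of differences share the WT libraries.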

How the results depend on the processing

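The counts of other sulfur genes past the threshold were recomputed with DESeq2's Wald test, RLE size factors, no filter on low counts, only the groups compared, and a replicate block, and without each library in turn. In 375 of 377 such counts the value stayed within 1.5 times the reported one. Without each library in turn the counts ran from 23 to 29 for the WT response, 5 to 8 for gun1-101, 20 to 25 for nac103-11 and 2 to 7 for NAC103-OX. For the response minus that of WT they ran from 16 to 26, from 4 to 11 and from 20 to 25 for gun1-101, nac103-11 and NAC103-OX. Against WT on control they ran from 19 to 24, from 17 to 23 and from 23 to 27, and on spectinomycin from 26 to 32, from 14 to 20 and from 11 to 17, in the same order. The exceptions were 2 for the NAC103-OX response without its replicate 3 on spectinomycin and 11 for nac103-11 minus WT without replicate 2 of WT control, and the cause was not tested. No gene called in a comparison reversed its direction under these alternatives. Of 3770 alternative log2 differences of the 10 genes, 3759 moved by less than 1 SD of the replicates and 11 by more, the 11 being of SULTR1;2 and APR3, among them -1.56 for the WT response of SULTR1;2 with RLE size factors. RLE in place of TMM moved the median of all genes by at most 0.03. The replicate numbers gave no sign of pairing, with correlations of deviations from -0.031 to 0.069 between same-numbered libraries compared, and a replicate block left the counts at 27, 7, 23 and 6 for the 4 responses and 21, 5 and 24 for the response minus that of WT. Depth limits SULTR1;1, SULTR3;5, SDI1 and LSU1, with 5 to 236 counts per library.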

Other observations

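Among the other sulfur genes, nac103-11 differed from WT on control in several whose control levels are not given above. The values below include the outlying replicate 2 of WT control. Without it 11 of the 40 genes were higher and 8 lower in this comparison, against 11 and 11 with it (23.2% and 20.1% of all genes). Shares of all genes without it were not recomputed. On control APK4, an APS kinase gene, was higher than in WT (1.38 ± 0.078, adjusted p = 8.68e-19, edgeR), as was BGLU30 (1.35 ± 0.039, adjusted p = 4.28e-29). LSU2, a relative of LSU1, was lower (-1.52 ± 0.23, adjusted p = 6.75e-07), at 1.37 ± 0.169 CPM against 3.92 ± 1.33 CPM. SULTR2;1, a vascular transporter gene, was lower as well (-1.12 ± 0.17, adjusted p = 8.49e-07), at 3.91 ± 0.366 CPM against 8.39 ± 2.89 CPM, whereas in NAC103-OX on control it was higher, at 22.0 ± 1.51 CPM (1.37 ± 0.12, adjusted p = 6.60e-12).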
